A study of Mus musculus with 2 samples.

Results

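Long noncoding RNA (lncRNA) genes with promoters of their own were examined in DNase-seq maps of newborn mouse lung. The genes were those of GENCODE release M21 annotated as lincRNA (lying between protein-coding genes) or antisense (transcribed against the strand of a protein-coding gene) on chromosomes 1 to 19, with every transcription start site (TSS) more than 2000 bp from any protein-coding TSS. This rule left 6351 genes, of which 4727 were lincRNA and 1624 were antisense, out of 8122 genes of both types and 51229 genes of every kind on these chromosomes. The rule used only the annotation, and none of its terms was a measured value.

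DNase I digests DNA that is free of nucleosomes more readily than wrapped DNA, so that clusters of its cuts mark accessible promoters, enhancers and insulators. The tissue was whole lung of the mouse strain B6NCrl at postnatal day 0, in 2 biological replicates with no treatment and no second group. Each library has its own biosample entry, but both point to 1 donor record, the sex was not collected, and whether the replicates are different animals or pools is not stated. Each library came with a list of 150 bp peaks, 269825 in replicate 1 and 183814 in replicate 2, and with a list of broader hotspots, 239660 and 166236. The unequal lengths of the lists bear on every count below, and the sequencing depth behind them is unknown. Every peak carried a whole-number score set by the authors, from 2 to 150 in replicate 1 and 2 to 148 in replicate 2, with list medians of 50 and 43. What the score measures is unknown, so it serves here as a description and as a rank inside each list. Of 16 marker genes of lung epithelium, mesenchyme and endothelium, 14 had promoter peaks in both libraries, among them Sftpc, Nkx2-1, Tcf21 and Kdr, whereas the airway secretory marker Scgb1a1 and the alveolar type 1 marker Pdpn had no overlapping pair of peaks. Of 6 marker genes of pancreas, liver and heart, 1 did, Myh7 of heart muscle (scores 106 and 75). Among all 20807 protein-coding genes, 69.9% had an overlapping pair of promoter peaks. The marker genes were chosen with earlier results of these data known. Whole lung mixes many cell types, and a peak in a few cells cannot be told apart from a weaker opening in many.

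LncRNAs are made by RNA polymerase II, and most are capped, spliced and polyadenylated like messenger RNAs but are less abundant and more restricted to particular tissues. Some act in the nucleus as scaffolds or at their site of transcription on neighbouring genes, and others serve mainly as precursors of microRNAs or small nucleolar RNAs. Promoters of messenger RNAs often lie in CpG islands, whereas many lncRNA promoters hold few CpG dinucleotides and resemble enhancers.

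A promoter was called accessible, or open, when a replicate 1 peak and a replicate 2 peak that both reached within 500 bp of a TSS of the gene overlapped by at least 1 bp. The sequences of 13 promoters are given first, because they show the range of DNA that such peaks covered, and the capitals mark matches to 14 short consensus motifs searched on both strands. For 12 of them the 150 bp of the strongest shared replicate 1 peak are printed, and for Miat, which had no peak, the 150 bp around the 5′ end, all read from the RefSeq copy of assembly GRCm38 on the strand of the gene, from 5′ to 3′. Neat1 (chr19:5845756-5845905, minus strand) and Malat1 (chr19:5802536-5802685, minus strand) are the abundant nuclear lncRNAs, and their peaks held no match.
Neat1: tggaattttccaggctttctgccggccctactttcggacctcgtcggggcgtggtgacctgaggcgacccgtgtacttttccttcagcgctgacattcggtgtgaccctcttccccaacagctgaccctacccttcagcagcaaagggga
Malat1: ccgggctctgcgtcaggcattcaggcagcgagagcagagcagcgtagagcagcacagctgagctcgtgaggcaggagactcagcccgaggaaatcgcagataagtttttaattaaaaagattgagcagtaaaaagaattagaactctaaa

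Among the strongest CpG-rich peaks were those of 5430416N02Rik (chr5:100429536-100429685, minus strand), of 6720427I07Rik (chr13:48546616-48546765, minus strand), whose transcript holds let-7 microRNA genes, and of the small nucleolar RNA host Snhg6 (chr1:9944096-9944245, minus strand). Capitals mark GGGCGG (SP/KLF), CCGGAA (ETS), ATTGG (NFY) and, in 6720427I07Rik, the CTCF core CCANNAGGG, or their reverse complements.
5430416N02Rik: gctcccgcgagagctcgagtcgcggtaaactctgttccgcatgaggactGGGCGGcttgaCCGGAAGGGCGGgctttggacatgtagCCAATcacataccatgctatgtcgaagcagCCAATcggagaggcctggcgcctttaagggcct
6720427I07Rik: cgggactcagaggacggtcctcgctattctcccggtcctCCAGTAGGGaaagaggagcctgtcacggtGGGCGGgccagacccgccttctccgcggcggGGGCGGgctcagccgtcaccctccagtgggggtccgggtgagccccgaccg
Snhg6: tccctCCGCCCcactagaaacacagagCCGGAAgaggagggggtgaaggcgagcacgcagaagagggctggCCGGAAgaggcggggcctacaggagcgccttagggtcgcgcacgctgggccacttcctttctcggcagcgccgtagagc

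The imprinted lncRNA genes Kcnq1ot1 (chr7:143296536-143296685, minus strand), Airn (chr17:12741236-12741385, plus strand) and H19 (chr7:142578196-142578345, minus strand) are shown because their promoters are methylated on 1 parental chromosome. Capitals mark ATTGG or GGGCGG, or their reverse complements.
Kcnq1ot1: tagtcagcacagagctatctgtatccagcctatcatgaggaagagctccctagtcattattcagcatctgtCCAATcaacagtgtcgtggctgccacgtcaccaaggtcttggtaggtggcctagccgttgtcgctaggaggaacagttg
Airn: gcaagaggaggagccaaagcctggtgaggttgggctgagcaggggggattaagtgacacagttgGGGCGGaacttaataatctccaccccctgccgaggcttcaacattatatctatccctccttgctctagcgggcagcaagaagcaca
H19: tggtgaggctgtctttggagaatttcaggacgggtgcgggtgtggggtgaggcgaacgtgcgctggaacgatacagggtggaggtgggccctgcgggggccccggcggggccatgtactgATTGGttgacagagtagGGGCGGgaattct

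A further 4 peaks show other sequence types. The peak of Lncpint (chr6:31088556-31088705, minus strand) held AP-1 (TGANTCA) and TEAD (CATTCC) letters and a TATA box (TATAAA), and that of E230001N04Rik (chr17:28523136-28523285, plus strand), a neighbour of Fkbp5, held GGGCGG and a glucocorticoid receptor half-site pair (ACANNNTGT). E130018N17Rik (chr2:168154596-168154745, minus strand) had the CTCF core letters, and 9030616G12Rik (chr10:128970916-128971065, plus strand) had no CpG at all in its peak and 1 TATA match.
Lncpint: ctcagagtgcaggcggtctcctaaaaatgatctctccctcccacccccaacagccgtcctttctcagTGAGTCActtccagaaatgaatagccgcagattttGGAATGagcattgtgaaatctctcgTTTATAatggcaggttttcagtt
E230001N04Rik: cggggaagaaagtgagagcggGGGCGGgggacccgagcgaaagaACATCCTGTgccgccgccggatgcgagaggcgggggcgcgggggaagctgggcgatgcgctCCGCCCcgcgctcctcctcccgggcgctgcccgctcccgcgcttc
E130018N17Rik: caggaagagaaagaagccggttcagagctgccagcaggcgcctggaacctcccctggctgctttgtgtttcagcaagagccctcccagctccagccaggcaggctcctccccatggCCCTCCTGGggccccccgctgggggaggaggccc
9030616G12Rik: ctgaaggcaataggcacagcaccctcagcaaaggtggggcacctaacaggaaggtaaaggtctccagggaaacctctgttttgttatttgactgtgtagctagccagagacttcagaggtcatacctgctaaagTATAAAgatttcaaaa

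Miat is a nuclear lncRNA gene with no peak in either library, and the 150 bp around its 5′ end (chr5:112229320-112229469, minus strand) are given for contrast. They held TEAD and NFY letters.
Miat: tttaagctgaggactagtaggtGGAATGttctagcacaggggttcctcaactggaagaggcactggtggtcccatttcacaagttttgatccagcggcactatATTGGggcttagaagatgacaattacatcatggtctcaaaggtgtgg

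Of the 6351 lncRNA genes, 1447 had an open promoter, or 22.8% (95% exact binomial interval 21.8 to 23.8). The share was 69.9% of the 20807 protein-coding genes, 38.0% of all 51229 genes, and 6.37% of consecutive 1001 bp windows over the same chromosomes. Intervals here and below cover counting error only and take no account of differences between animals. LincRNA genes (1076 open) and antisense genes (371 open) had the same share, 22.8%, with intervals of 21.6 to 24.0 and 20.8 to 25. The 1771 lncRNA genes that the rule set aside because a TSS lay within 2000 bp of a protein-coding TSS were open in 63.0% (60.7 to 65.3). Just inside the rule, at 2001 to 2500 bp, 21 of 101 genes were open (20.8%), and just outside it, at 1501 to 2000 bp, 33 of 135 were (24.4%). Protein-coding genes have more annotated TSSs, so the share was also taken per TSS. It was 22.8% of 8538 lncRNA TSSs and 56.4% of 90262 protein-coding TSSs.

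Known lncRNA genes were collected in 6 lists of 97 names, of which 36 were members of the rule. Of the other names, 17 lay within 2000 bp of a protein-coding TSS (Tug1 is one), 25 were annotated as another type (Gas5, Rian, Fendrr and Sox2ot are processed transcripts), and 19 were not matched by name. Of the 36 members, 26 had an open promoter, 5 had a peak in replicate 1 only, 1 had peaks in both libraries that did not overlap, and 4 had none. These genes were listed because they are well studied, so their share is not a measure of lncRNA genes at large.

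Nuclear and stress-related lncRNAs included the highest score of these lists. Neat1, the scaffold of paraspeckles, scored 141 in replicate 1 and 110 in replicate 2 at its strongest shared peak, which was centred at -352 bp from the nearest TSS. That peak also lies 207 bp downstream of a TSS of the divergent gene Frmd8os, so the same peak counted for both genes. The hotspot over it was 7061 bp wide in replicate 1 and 2657 bp in replicate 2, the widest of any lncRNA gene here. Malat1, the nuclear speckle RNA next to Neat1, scored 131 and 115, with 5 shared peaks in its promoter windows and hotspots of 4872 and 2032 bp. Lncpint, a p53-induced RNA, had 7 shared peaks over 14 annotated TSSs, more than any other lncRNA gene, with scores of 112 and 103 at the strongest. 2900097C17Rik, at 106 and 85, and the p53 target Trp53cor1 (lincRNA-p21), at 98 and 72, followed. Trp53cor1 lies 11797 bp from the TSS of Cdkn1a, the cell-cycle inhibitor gene that it is known to act on. Pvt1, the neighbour of the oncogene Myc at 50564 bp, was weaker, at 77 and 42. Miat had no peak in either library, although 36 CpG lay within 500 bp of its 5′ end. All 6 open members of this group therefore scored above the list medians in replicate 1, and Pvt1 alone fell below that of replicate 2.

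All 4 members listed as hosts of small nucleolar RNAs, guide RNAs that are cut out of introns, were open, although Snhg20 holds only a microRNA gene in the annotation used. The scores were 135 and 119 for Snhg6, 127 and 114 for Snhg12, 123 and 99 for Snhg20, and 121 and 107 for Epb41l4aos. The range was narrow and high in both libraries. Over the whole annotation, however, 10 of 36 lncRNA genes that hold a small nucleolar RNA gene on their strand were open, or 27.8% (14.2 to 45.2), an interval that includes the 22.5% of genes holding neither kind of small RNA.

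Of 9 members listed as microRNA hosts, 7 were open. In the annotation used, 7 of the 9 hold a microRNA gene on their strand, of which 5 were open, while Carmn and Mirt1 hold none. Dnm3os, which runs antisense inside Dnm3 and carries Mir199a-2 and Mir214, microRNAs of mesenchymal cells, had the highest replicate 1 score of the list, 128, and 87 in replicate 2. Carmn, the smooth-muscle host locus of Mir143 and Mir145, scored 111 and 84. Mir670hg, which holds Mir670 and Mir129-2, scored 109 and 102. The immune hosts Mir155hg, at 90 and 71, and Mir142hg, at 68 and 72, were intermediate, and Mir142hg is among the few promoters with the higher score in replicate 2. Mirt1 scored 77 and 73. Mir17hg, the host of the Mir17 to Mir92-1 cluster that supports growth of lung progenitors, scored 77 and 41 at its shared peak, although replicate 1 also had a peak of 103 there with no partner in replicate 2. At the bottom were the hosts of Mir9-3 and Mir124a-1, microRNAs known from neurons. Mir9-3hg had a single replicate 1 peak of score 30, and Mir124a-1hg had peaks of 43 in replicate 1 and 25 in replicate 2 that did not overlap. Among all members, 31 of 69 genes holding a microRNA gene on their strand were open, or 44.9% (32.9 to 57.4), above the 22.5% (21.5 to 23.6) of genes holding neither, and their median scores were 99 and 75. The 2 sets were not matched for CpG or number of TSSs, which also went with opening, and the part of these was not tested.

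All 5 imprinted members were open, over a wide range of scores. Kcnq1ot1, which lies inside Kcnq1 and silences Cdkn1c and other neighbours on the paternal chromosome, scored 125 and 93, and Airn, which runs antisense through Igf2r and silences it on the paternal chromosome, scored 122 and 101. Meg3 scored 80 and 56. H19, a growth-restraining RNA that is abundant in fetal tissue, scored 65 and 70, with its peak centred at -127 bp from the nearest TSS. Mirg, further along the Meg3 cluster, had the weakest of the 26 open promoters of listed genes, with scores of 18 and 12. Its replicate 1 peak lay in an intron of the gene, centred at -533 bp from the nearest of 11 annotated TSSs. The peaks of the 2 libraries overlapped there only in part. The maps do not separate the parental chromosomes.

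A list of lncRNA genes in Hox clusters, beside other developmental regulator genes or with a known part in development held 7 members. Of these, 2 were open, a share near that of all lncRNA genes. They were Hoxb3os (100 and 72), in the HoxB cluster, and Bvht (108 and 72), a gene known for heart development whose nearest protein-coding gene is Il17b. A further 4 had peaks in replicate 1 only. These were Hoxaas3 at 100, 9030622O22Rik at 74, which lies 5261 bp from Foxa2, Rmst at 50 and Nkx2-2os at 42. Hotair, which is transcribed in the HoxC cluster and known from posterior tissues, had no peak. Whether these 4 rest on the longer peak list of replicate 1 was not tested. Of 4 immune members, Ptgs2os2, near the prostaglandin synthase gene Ptgs2, scored 111 and 77, AU020206 scored 125 and 106, and Gm15987 and Ifngas1 had no peak.

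**Figure D1:**
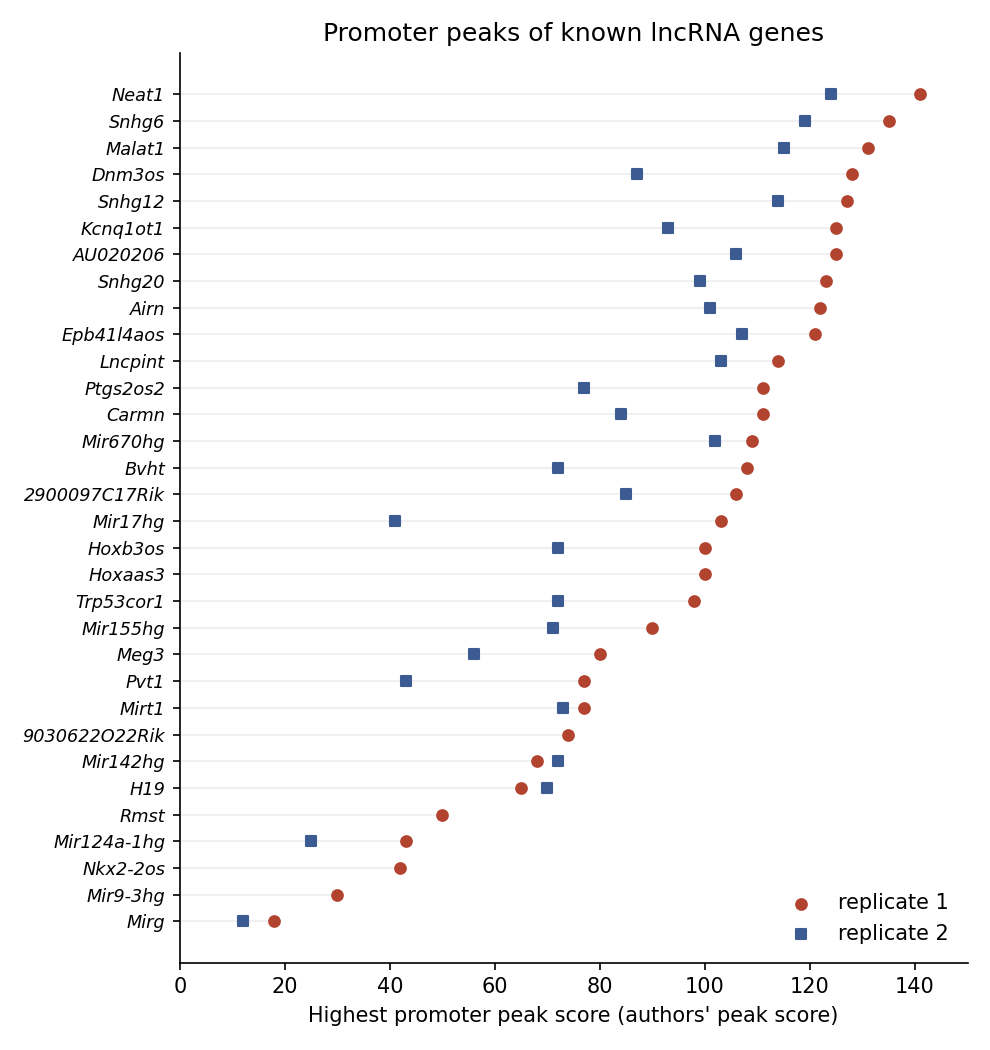
Highest promoter peak score, on the authors' scale, of the 32 listed lncRNA genes with a peak, with replicate 1 as circles and replicate 2 as squares. Neat1, Snhg6 and Malat1 lie at the top, Mirg at the bottom, 5 genes have no square because replicate 2 had no peak there, and the 2 points of Mir124a-1hg are peaks that do not overlap.

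The strongest lncRNA promoters were mostly genes without established names. Ranked by the mean, over both libraries, of the peak's percentile within its list, the first were 1700096K18Rik (144 and 134), 5430416N02Rik (142 and 136), 1810019N24Rik (144 and 131), Gm11527 (142 and 130) and Gm20732 (141 and 131). Gm20732 holds Mir30d, and 6720427I07Rik (146 and 123) holds Mirlet7a-1, Mirlet7d and Mirlet7f-1, so that 2 of the 12 strongest were microRNA hosts of families abundant in many tissues. Then came Gm15287 (141 and 126), Gm33195 (142 and 125), E130018N17Rik (138 and 129) and 2410080I02Rik (139 and 127). E230001N04Rik and Gm20109 close the 12 with the same peak of 140 and 124, centred at -83 bp from a TSS of the first and -62 bp from that of the second. Both genes start 5193 and 5621 bp from a TSS of Fkbp5, and 2410080I02Rik starts 6326 bp from Klf9, and both Fkbp5 and Klf9 are known glucocorticoid-induced genes. Of the 12, E130018N17Rik alone had under 20 CpG within 500 bp of its 5′ end, with 15.

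Over all open lncRNA promoters the strongest shared peak had median scores of 78 (replicate 1) and 55 (replicate 2), against 122 and 102 at open protein-coding promoters and 62 and 43 at shared peaks more than 1000 bp from any TSS. In replicate 1, 26.2% of lncRNA promoters were in the top 10% of the peak list, against 72.6% of protein-coding promoters and 9.46% of distal peaks. In replicate 2 these shares were 16.5%, 67.3% and 4.8%. LincRNA genes (79 and 55) and antisense genes (76 and 53) hardly differed. The 2 libraries ordered the lncRNA promoters in much the same way. Across 1422 distinct pairs of peaks Spearman's rho was 0.926 and Pearson's r was 0.927, given as a description across promoters, which are not replicates and share the library and its scale. The replicate 1 score was the higher in 96.3% of the pairs.

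**Figure D2:**
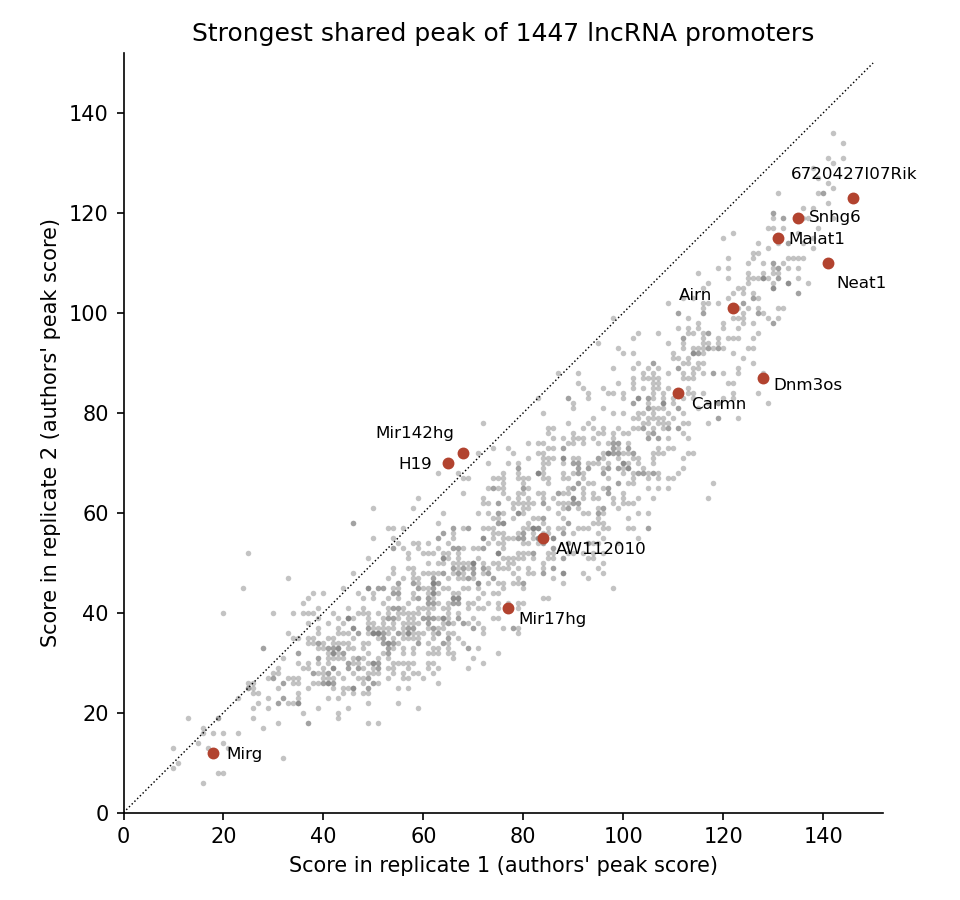
Score of the strongest shared peak of each open lncRNA promoter in replicate 1 (x axis) and replicate 2 (y axis), with the dotted line marking equal scores and 12 genes labelled. Nearly all points lie below the line, H19 and Mir142hg lie above it, and Mirg lies near the origin.

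Open promoters were more frequent where CpG dinucleotides, counted within 500 bp of the 5′ end, were more numerous. Of lncRNA genes with 0 to 9 CpG 10.5% were open (9.31 to 11.8), then 23.6% with 10 to 19, 37.7% with 20 to 29, 50.4% with 30 to 49 (44.3 to 56.4) and 77.1% with 50 or more (69.3 to 83.8). In the same classes 15.7%, 48.9%, 64.6%, 87.3% (86.1 to 88.5) and 96.2% (95.7 to 96.5) of protein-coding genes were open. In each class the lncRNA share was below the protein-coding share, with intervals that did not overlap. The lower share was thus present within each class of CpG number at the 5′ end. A gene could be open at another of its TSSs, where CpG was not counted. Open protein-coding genes had a median of 4 annotated TSSs, against 1 for open lncRNA genes. The class of 50 or more has no upper limit. The mix of classes also differed. Only 140 lncRNA genes had 50 or more CpG, against 9219 protein-coding genes. Open lncRNA promoters had a median of 17 CpG, against 58 at open protein-coding promoters, and 61.2% of them had under 20, against 14.3%. LncRNA genes without a peak in either library had a median of 10.

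Score followed the same order. The median went up over the 5 CpG classes from 61 to 76, 80, 96 and 116 in replicate 1 and from 41.5 to 53, 57, 72 and 93.5 in replicate 2, while protein-coding promoters had 82, 90, 99, 118 and 128 in replicate 1. Single genes departed from this. AW112010, a lncRNA gene of immune cells, had 2 CpG and 60.2% repeat-masked bases within 500 bp of its 5′ end, yet scored 84 and 55, and Gm44751, with 1 CpG, scored 82 and 55. 9030616G12Rik (1 CpG) scored 55 and 36, Gm13749 (2 CpG) scored 40 and 28, and Gm48833 (0 CpG) scored 16 and 17. The replicate 1 peaks of Gm44751 and Gm48833 were centred at -528 and -572 bp from the TSS. Both centres lie outside the window in which CpG was counted. At the other end Gm40849 with 99 CpG, Gm49700 with 97, Gm26709 with 94, AY036118 with 90 and Gm42418 with 82 had no peak in either library. AY036118 and Gm42418 overlap on opposite strands of chromosome 17, so they are not separate sites. Whether reads can be placed uniquely at these starts was not tested.

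**Figure D3:**
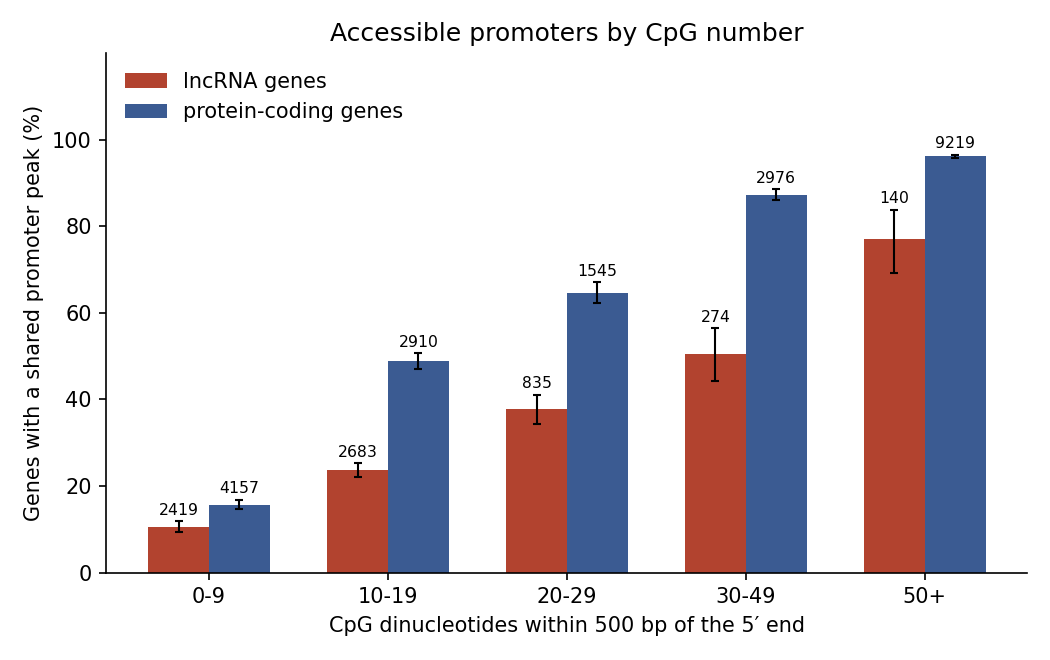
Share of lncRNA genes (left bars) and protein-coding genes (right bars) with a shared promoter peak, by the number of CpG dinucleotides within 500 bp of the 5′ end, with 95% exact binomial intervals and the number of genes above each bar. Both series climb, from 10.5% to 77.1% of lncRNA genes and from 15.7% to 96.2% of protein-coding genes, and the lncRNA bar is the lower one in every class.

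Repeats and annotation also went with opening. Where 0 to 20% of the 1001 bp around the 5′ end was repeat-masked, 28.2% of lncRNA genes were open. The share was 19.8% at 20 to 40%, 9.35% at 40 to 60%, 2.54% at 60 to 80% (5 of 197) and 1.14% at 80 to 100% (2 of 175, interval 0.139 to 4.07). Protein-coding genes in these classes were open in 74.1%, 53.7%, 34.4%, 43.4% and 11.4%. Among lncRNA genes with under 20 CpG the share declined too, from 21.1% in the first class to 0 of 137 in the last, for which the interval reaches up to 2.66%. How reads that map to several repeat copies were handled is not stated, and its part in this decline was not tested. Genes with 1 annotated TSS were open in 19.4%, those with 2 in 34.3%, those with 3 to 5 in 37.3%, and those with 6 or more in 62.3% (33 of 53), while protein-coding genes had 38.2%, 51.2%, 78.4% and 95.8%. Genes with more TSSs also had more windows searched. Genes with a best transcript support level of 1 were open in 27.2%, with 2 in 28.8%, with 3 in 19.7% and with 5, the weakest support, in 14.2% (12.2 to 16.4). The 1482 genes without a support level were open in 22.4% (20.3 to 24.6).

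Distance from protein-coding genes made little difference up to 50 kb. The share open was 25.4% at 2 to 5 kb from the nearest protein-coding TSS, 25.4% at 5 to 10 kb and 26.3% at 10 to 50 kb, then 22.9% at 50 to 100 kb, 18.5% at 100 to 500 kb and 9.8% (29 of 296, 6.66 to 13.8) beyond 500 kb. LncRNA genes whose nearest protein-coding gene had an open promoter were themselves open in 23.8% of 5175 cases (22.7 to 25), against 18.1% of 1176 cases (16.0 to 20.4) where it was not. With under 20 CpG these shares were 18.3% and 13.5%, and with 20 or more they were 46.0% (43.0 to 49.1) and 39.4% (32.7 to 46.4), where the intervals overlap. By chromosome, the share ranged from 15.1% on chromosome 12 (55 of 365) to 33.2% on chromosome 17 (93 of 280).

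LncRNA genes beside lung transcription factor genes were looked at separately, with a list of 39 such genes drawn up after the data were seen. All 39 had open promoters, and for 25 of them at least 1 lncRNA gene had them as the nearest protein-coding gene. Of these 69 lncRNA genes, 19 were open, or 27.5% (17.5 to 39.6), an interval that includes the 23.8% of the other lncRNA genes beside open protein-coding promoters. The strongest was 9230117E06Rik, 71761 bp from Etv5, a factor that maintains alveolar type 2 cells, with scores of 114 and 96. Gm26642, 9088 bp from the epithelial factor gene Elf3, scored 106 and 87, and Gm15831, 7227 bp from the alveolar type 1 gene Hopx, scored 106 and 72. Beside Tbx genes of the lung mesenchyme, Tbx3os2 scored 81 and 63, and 1700021F13Rik, 24799 bp from Tbx5, scored 76 and 67. None of the 8 lncRNA genes nearest to Sox2, the airway progenitor factor, had a peak in either library.

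Peaks lay less closely at the annotated start of lncRNA genes. The centre of the strongest shared peak was a median of 133 bp from the nearest TSS of its gene, against 56 bp at protein-coding genes. It lay within 150 bp in 53.4% of lncRNA promoters, against 81.1% of protein-coding promoters and 74.9% of protein-coding promoters with under 20 CpG. In both kinds of gene the peak tended to lie upstream, in 65.2% and 74.8%, with median positions of -50 and -38 bp. At 25.4% of open lncRNA promoters the peak centre was more than 300 bp away, against 8.17%, and 1810019N24Rik (396 bp downstream) and Neat1 are such cases. Another annotated TSS, of a gene that was not protein-coding, lay within 500 bp of 98 open lncRNA genes (6.77%), as at Neat1 and Frmd8os. Of the open lncRNA promoters 1113 had a single shared peak (76.9%) and 56 had 3 or more (3.87%), against 41.2% and 25% of protein-coding promoters. Open protein-coding genes had a median of 4 annotated TSSs, against 1 for open lncRNA genes, which gives them more windows and a nearer TSS. Among open genes with 1 TSS, the peak centre lay a median of 142 bp from it in 988 lncRNA genes and 84 bp in 1685 protein-coding genes, and within 150 bp in 51.3% and 71%. A single shared peak was then found in 81.9% and 64.5%, and 3 or more in 2.13% and 6.05%. After Lncpint, the most were at D330050G23Rik and Malat1, with 5 each, and Rab10os and Gm26611 were among those with 4.

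**Figure D4:**
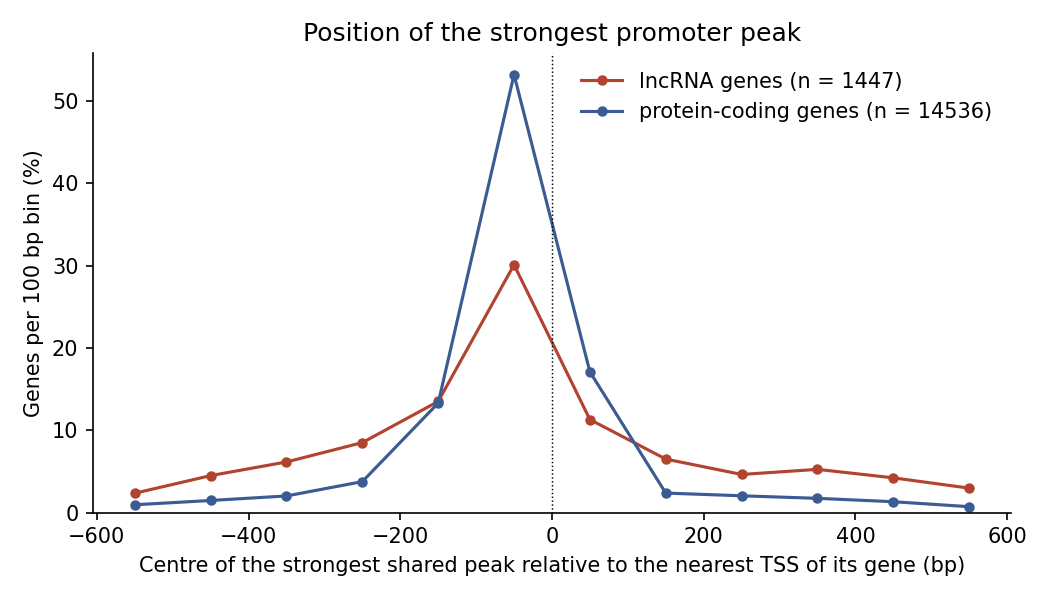
Position of the strongest shared peak relative to the nearest TSS of its gene, as the percentage of open lncRNA genes and of open protein-coding genes per 100 bp, with negative values upstream. The 100 bp just upstream of the TSS hold 30.1% of lncRNA peaks and 53.2% of protein-coding peaks, and the lncRNA curve is the higher one more than 200 bp from the TSS on both sides.

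Hotspots over open lncRNA promoters were narrower. Median widths of 480 bp (replicate 1) and 348 bp (replicate 2) compare with 1160 and 866 bp over protein-coding promoters and 250 and 240 bp for all hotspots. The −log10 q-value stood at 100, the highest value in the files, for 76.6% and 54.5% of lncRNA promoter hotspots, against 93.0% and 85.9% of protein-coding ones. Ranked by the narrower of the 2 libraries, the widest after the one shared by Neat1 and Frmd8os were those of 2410080I02Rik (3121 and 2655 bp), 2610037D02Rik (4050 and 2559 bp) and Gm6410 (2509 and 2364 bp). The scores at 2610037D02Rik were 83 and 57, nearer to the lncRNA medians than those of the other 2.

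The letters under the peaks placed lncRNA promoters between protein-coding promoters and distal sites for 13 of 14 motifs, the exception being YY1. The searches covered 150 bp replicate 1 peaks, 1422 at lncRNA promoters, 13370 at protein-coding promoters and 120761 distal ones, together with the 150 bp around the 5′ end of 4258 lncRNA genes without a peak in either library. GGGCGG, the SP/KLF box seen above in 5430416N02Rik, Snhg6 and Airn, stood in 15.4% of lncRNA promoter peaks, against 54.3% of protein-coding promoter peaks, 5.61% of distal peaks and 3.24% of unopened lncRNA starts. CCGGAA (ETS) stood in 8.30%, against 18.8%, 3.16% and 3.24%. GCATGCGC (NRF1), at 0.844% against 3.46%, and TGACGTCA (CRE), at 0.985% against 2.6%, were likewise less frequent than at protein-coding promoters.

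Motifs of enhancer-bound factors had the opposite order. TGANTCA, the AP-1 site in Lncpint, stood in 10.1% of lncRNA promoter peaks, against 3.21% of protein-coding promoter peaks, 10.3% of distal peaks and 5.12% of unopened lncRNA starts. The lncRNA share was also close to the distal one for CATTCC (TEAD, 11.7%, against 6.06% at protein-coding promoters and 12.8% at distal peaks), TTGGCA (an NFI half-site, 12.4%, against 6.01% and 14.2%) and TGTTTAC (FOX, 3.87%, against 1.24% and 4.29%). Unopened lncRNA starts held TEAD letters in 9.09%, NFI letters in 9.63% and FOX letters in 2.02%, each above the protein-coding share. ACANNNTGT, the half-site pair in E230001N04Rik, stood in 5.41%, against 1.48%, 6.18% and 4.79%. TATAAA stood in 5.41% against 2.38% at protein-coding promoters, and in 8.22% of unopened starts. CCANNAGGG (CTCF core) was near the same share in all 3 kinds of peak, 4.36%, 3.93% and 5.22%. CACGTG (E-box) stood in 4.57%, against 6.53% and 2.9%. Unopened lncRNA starts had more matches than open lncRNA peaks for ATTGG (NFY), at 18.4% in lncRNA peaks, against 27.2% in protein-coding peaks, 16.9% in distal peaks and 21.9% in unopened starts, and for AAGATGG (YY1), at 1.34%, against 3.07%, 2.23% and 3.99%.

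Base composition differs between these windows and moves with the shares. The median GC content was 52.0% at lncRNA promoter peaks, against 64.7% at protein-coding promoter peaks and 48.7% at distal peaks. Within promoters of under 20 CpG, GGGCGG stood in 7.55% of lncRNA peaks and 29.4% of protein-coding peaks, and TGANTCA in 10.5% and 7.58%. In this class GGGCGG and CCGGAA (5.38% and 9.87%) still lay between protein-coding and distal peaks, but most motifs did not. TGTTTAC, at 4.46%, lay above both the protein-coding share of 2.28% and the distal 4.29%. CACGTG, at 2.63%, lay below both (4.67% and 2.9%). The distal peaks were not split by CpG. With 20 or more CpG, GGGCGG stood in 28.1% and 58.8%, and TGANTCA in 9.19% and 2.4%. The median GC content still differed within these classes (50% and 56% with under 20 CpG, 56% and 66% with 20 or more), and its part in the shares was not tested. Letters of different motifs can overlap, as those of ATTGG and TTGGCA do, and a match is a description of the sequence, not a bound site.

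**Figure D5:**
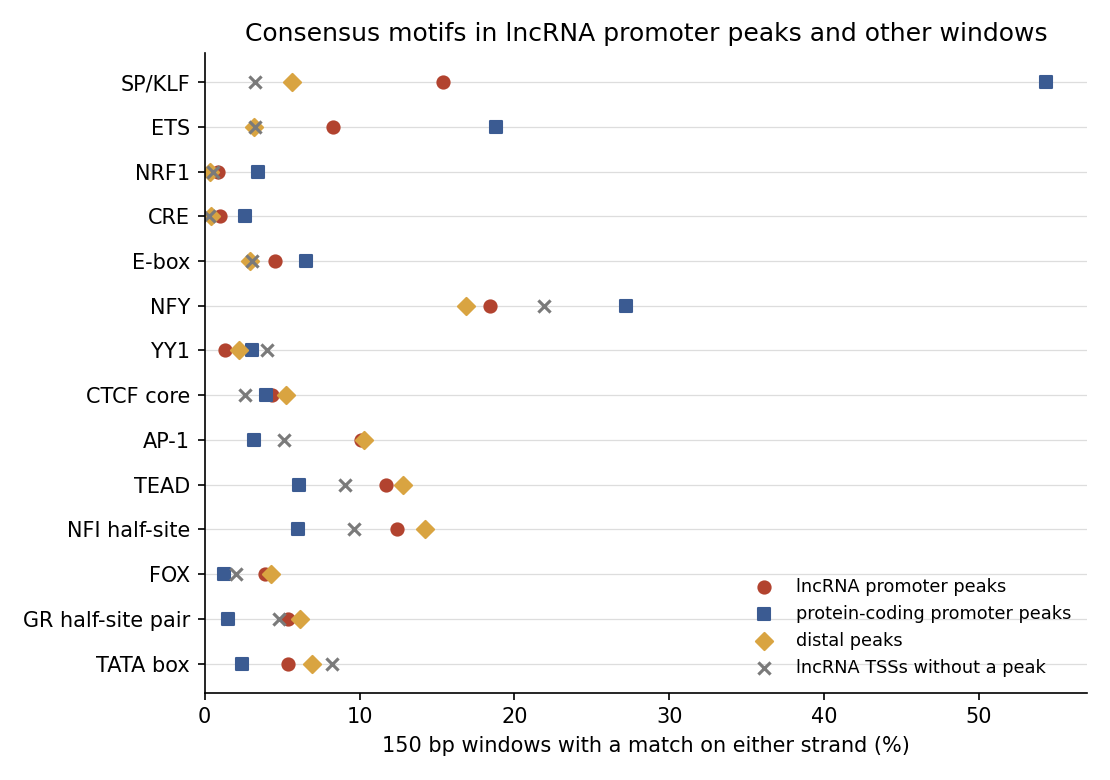
Percentage of 150 bp windows with a match to each of 14 consensus motifs on either strand, at lncRNA promoter peaks (circles), protein-coding promoter peaks (squares), distal peaks (diamonds) and lncRNA starts without a peak (crosses). For SP/KLF the circle, at 15.4%, lies far left of the square, at 54.3%, and for AP-1, TEAD, NFI and FOX it lies beside the diamond.

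The libraries differed more at lncRNA promoters than at protein-coding ones. A promoter peak was present in replicate 1 at 2006 lncRNA genes (31.6%) and in replicate 2 at 1561 (24.6%). Open genes were 72.1% of the replicate 1 set and 92.7% of the replicate 2 set, against 94.7% and 98.8% for protein-coding genes. For the lncRNA genes within 2000 bp of a protein-coding TSS the shares were 87.9% and 96.6%. The replicate 1 list is the longer one, at 269825 peaks against 183814, and the share of all its peaks with a partner is not given here. These values therefore compare promoter sets with each other only. Open lncRNA promoters also had lower scores, and the part of list length and peak strength in these shares was not tested. In 532 genes there was a peak in replicate 1 only, in 87 in replicate 2 only, in 27 in both without overlap, and 4258 (67.0%) had none. Peaks found in 1 library only were weak, with a median top score of 38 in replicate 1 and 28 in replicate 2. The highest of these in replicate 1 were at Hoxaas3 (100), Gm4211 (97) and Gm36495 (96), and in replicate 2 at Gm35501 (53), Gm17180 (45) and Gm4665 (44). Hotspots of both libraries overlapped at 1517 lncRNA promoters (23.9%), of which 27 had no peak in either library.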

How the data were processed

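DNase-seq peaks and hotspots of 2 newborn lung libraries were used as deposited. Both replicates form 1 group, so no test between conditions was possible and no p-value was computed. Per the deposited notes, the authors called peaks and hotspots in each library separately on mm10. No aligner or caller is named in the sources used here. The peak value is a score set by the authors, whose meaning and normalization were not given, and the deposited hotspot value is a −log10 q-value, as its column position in this format defines. Depth is unknown, and the list lengths stand in for it.

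Exact duplicate peaks (25 in replicate 1 and 22 in replicate 2) were removed. On chromosomes 1 to 19, 0 intervals ended past the end of the RefSeq GRCm38 chromosomes. TSSs were those of all GENCODE M21 transcripts of a gene. The strongest shared peak was the pair of overlapping peaks in the promoter windows with the highest sum of rank percentiles over the 2 lists. A library can therefore hold a higher score in the same windows. CpG, GC and repeat-masked (lower-case) bases were counted in the RefSeq sequence. Intervals are exact Clopper-Pearson intervals at 95%. No set test and no resampling were used. Named genes were the listed lncRNAs that met the rule, the 12 strongest promoters, the 5 with the most shared peaks, the 5 with the widest hotspots, the 3 strongest seen in 1 library only for each library, and the 5 open with the fewest CpG and 5 unopened with the most; genes near lung transcription factors were chosen after the data were seen. Members, lists and marker genes were chosen with earlier results of these data known. The interval code was tested on simulated data. Python 3.11.15, numpy 2.4.6, pandas 2.3.3, scipy 1.17.1, pysam 0.24.0 and matplotlib 3.10.9 were used.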

Additional observations from a re-analysis of the deposited data

How the results depend on the processing

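The share of lncRNA genes with an open promoter, 22.8%, was below the protein-coding share, 69.9%, under each alternative. It was 18.8% (68.0% for protein-coding genes) with windows of 250 bp, 29% (72.1%) with 1000 bp, 15.0% (63.4%) with only peaks above their list median, 21.5% (64.1%) at the 5′ end of the gene alone, and 23.9% with hotspots in place of peaks. An overlap of at least 75 bp gave 69.0% for protein-coding genes. With 1 library at a time the lncRNA share ranged from 24.6% to 31.6% and the protein-coding share from 70.7% to 73.8%. Median scores of open lncRNA promoters, 78 and 55, were 94 and 68 with peaks above the list median, and with 1 library alone they were 63 in replicate 1 and 52 in replicate 2. The other alternatives moved these values by less than the counting interval or the spread of scores. The peak list of replicate 2 is the shorter one and bounds every count of shared peaks, so a promoter without a shared peak was not detectable as open at this depth and is not shown to be closed. No paired analysis was possible because the series holds 1 group.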
